A study of Mus musculus with 15 samples.

Results

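The cytosolic ribosomal protein genes, which encode the protein parts of the ribosome outside mitochondria, were described in lungs of C57BL/J mice. Members were the rows of the deposited gene table whose symbol begins with Rpl or Rps and a digit, or is Rplp0, Rplp1, Rplp2 or Rpsa. Their description had to begin with "ribosomal protein", and S6 kinase genes and rows described as pseudogenes were left out. The rule found 95 members among 57010 rows. Of these, 77 were standard ribosomal protein genes and 18 were like genes, retrogenes, extra copies or a binding protein. A further 319 rows were described as ribosomal protein pseudogenes and were kept apart.

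The study sequenced RNA of 15 lung libraries in 4 groups. The silica_DMSO group received a silica suspension as nose drops and DMSO, a solvent given here as the treatment, on the following day (replicates 2, 4, 5 and 6). The silica group was labelled with silica (replicates 1, 2 and 7), the DMSO group with DMSO (replicates 1, 4, 6 and 7), and the control group with physiological saline (replicates 1, 2, 4 and 7). Lungs were taken after 30 days, although the extraction notes of the same samples speak of retinas. The sources used here give neither sex nor age, and the labels do not say whether each library was a separate animal, so p-values measure only the spread between libraries.

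Ribosomal proteins of the large subunit carry the prefix Rpl and those of the small subunit the prefix Rps. Each ribosome holds nearly all of them in equal number, so their mRNAs are among the most abundant of any cell and are usually kept in step. Most of these mRNAs begin with a C followed by a run of C or T (C or U in the RNA), the terminal oligopyrimidine tract. The protein LARP1 binds this tract, and through it the growth kinase complex mTORC1 raises or lowers translation of the whole family at once. The proteins Rplp0, Rplp1 and Rplp2 form the stalk that recruits elongation factors, and Rpsa, a small-subunit protein, is also known as the laminin receptor.

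The sequence around the start site was read to show this tract in members that follow the family closely or depart from it. RefSeq's promoter table (build GRCm38.p6) had an entry for 69 of the 95 members. Each line gives 10 bases before the annotated start and the first 20 bases from it, on the gene's strand. Capitals mark runs of at least 5 C or T.
Rpl27a (chr7:109519185-109519214, plus strand): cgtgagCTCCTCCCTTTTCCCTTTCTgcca
Rps27 (chr3:90213629-90213658, minus strand): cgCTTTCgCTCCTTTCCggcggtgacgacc
Rps27rt (chr9:114982720-114982749, minus strand): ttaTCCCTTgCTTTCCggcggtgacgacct
Rplp2 (chr7:141447641-141447670, plus strand): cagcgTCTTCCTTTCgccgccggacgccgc
Rps7 (chr12:28635934-28635963, minus strand): cggTTTCCacccacctaCTTCCgctgtccc
Rpl39 (chrX:37085203-37085232, minus strand): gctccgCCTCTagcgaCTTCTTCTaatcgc
Rpl4 (chr9:64173377-64173406, plus strand): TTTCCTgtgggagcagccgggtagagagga
Rpl7l1 (chr17:46782637-46782666, minus strand): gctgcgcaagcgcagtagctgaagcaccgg
The longest run among them was that of Rpl27a, and Rpl7l1, a nucleolar relative of Rpl7, had no run of at least 5. Among members that followed the family closely but are not shown, the longest runs were 13 in Rps10, 9 in Rps9, 7 in Rpl11 and 5 in Rpl27 and Rpsa.

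Counted strictly, a C at the annotated first base followed by at least 4 C or T was present in 15 of the 69 members (21.7%), against 813 of 27025 genes of the table (3.01%). A run of at least 8 C or T anywhere in the 30 bases was present in 26 members (37.7%), against 3517 genes of the table (13.01%). The letters CTTTCC, searched on the gene's strand and partly overlapping such runs, stood in the window of 11 members (15.9%), against 412 genes (1.52%). The annotated start of a gene can lie some bases from the start used in lung, so a window without the tract says only that these letters are not in it.

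The libraries held 17434649 to 20829960 counts each. Of them, 3 carried high levels of thymocyte genes, which mark immature T cells of the thymus. Rag1, which cuts antigen receptor genes, stood there at 2743 CPM (counts scaled to the library total) in silica_DMSO 4, 2541 CPM in silica_DMSO 6 and 3876 CPM in DMSO 7, and at 0.224 CPM or less in the other 12. The alveolar type 2 marker Sftpc took 0.0789%, 0.0108% and 0.509% of counts in these 3 libraries and 1.39% to 3.95% in the other 12. The tests below are therefore also given for the 12 libraries. There the silica_DMSO group is replicates 2 and 5 alone, so values over the 12 libraries that involve it rest on these. Libraries also differed in the weight of short genes, described beside the counts it touches.

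Among the 77 standard members, mean TPM (a level per length, scaled to one sum in every library) over the 15 libraries ran 425-fold, with a median of 1569 TPM. The highest were Rps27 (ENSMUSG00000090733) at 11062 TPM, Rps14 at 6798, Rps15 at 5499, Rps24 at 4702 and Rpl23a at 4420 TPM. All but Rpl23a belong to the small subunit. The lowest standard members were Rpl5, which carries the ribosome's smallest RNA, at 26.0 TPM and Rpl12, part of the stalk's base, at 30.7 TPM. Described pseudogenes, 1 row for each of these genes, held 0.105% of the counts of Rpl5 and its copies together and 0.00560% of those of Rpl12. Copies under other descriptions were not counted, so whether copies took reads of Rpl5 and Rpl12 was not tested. Counts gave another order, led by Rps14 with 3.98% of all member counts, Rpsa with 2.86% and Rpl13a with 2.77%.

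TPM levels of members depend on the length that the authors' quantification used. Counts divided by TPM gave an effective length of 74.8 bases for Rps27 against a listed 345, 363 bases for Rps15a against 5130, and 762 bases for Rps7 against 820. Over the standard members the ratio of effective to listed length ran from 0.0709 (Rps15a) to 1.20 (Rpl7), so the order of levels between genes is that of this estimate.

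**Figure D1:**
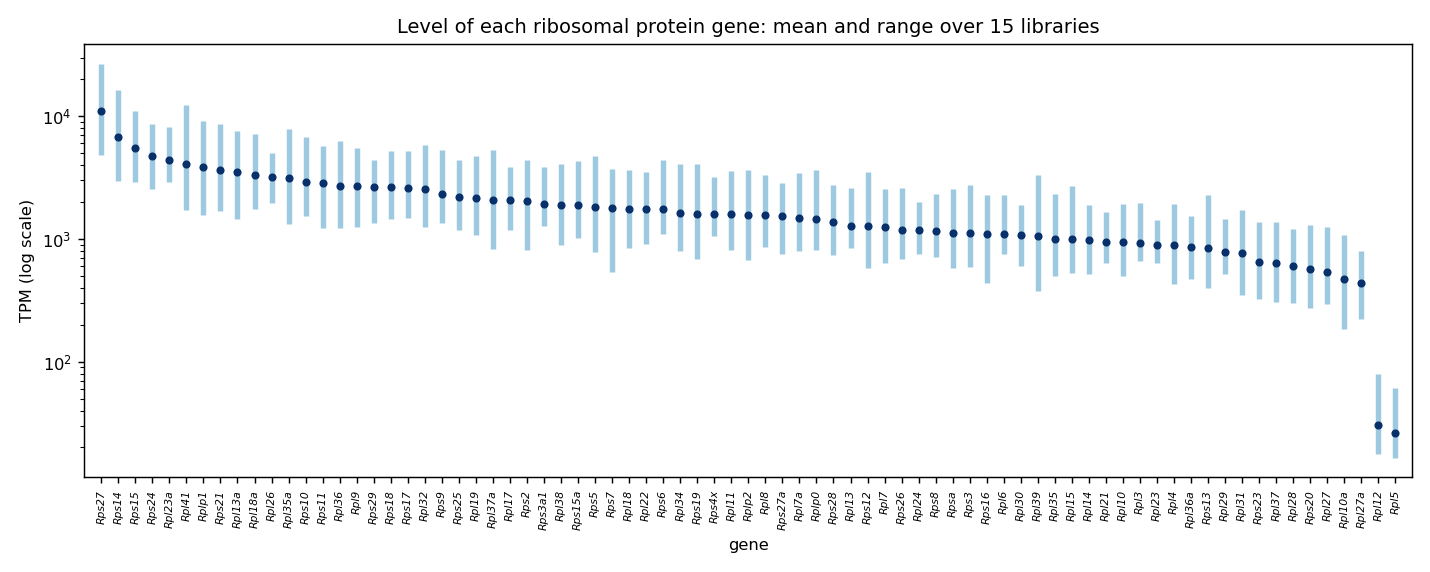
Mean TPM over the 15 libraries (dots, log axis) of each of the 77 standard members, ordered from high to low, with a line from the lowest to the highest library. Rps27 stood highest at 11062 TPM, and Rpl5 and Rpl12 stood lowest at 26.0 and 30.7 TPM.

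The stalk genes were not level with each other. Rplp1 averaged 3823 TPM, Rplp2 1569 TPM and Rplp0 1451 TPM. Rplp2 had 768, 2196, 3646 and 2696 TPM in silica_DMSO 2, 4, 5 and 6, 669, 870 and 1532 TPM in silica 1, 2 and 7, 1452, 1652, 777 and 1318 TPM in DMSO 1, 4, 6 and 7, and 3616, 704, 831 and 803 TPM in control 1, 2, 4 and 7. Control 1 thus stood far above the other 3 control libraries, and the 4 groups overlapped. Rplp0 showed no such step, with 817, 828, 976 and 880.2 TPM in control 1, 2, 4 and 7. Rpsa averaged 1123 TPM and was highest in silica_DMSO 6 (2551 TPM) and lowest in control 2 (579 TPM).

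Among the other 18 members, Rpl22l1 at 555 TPM, Rpl36al at 540 TPM and Rps27l at 467 TPM were the highest, and several were rare. The muscle form Rpl3l averaged 0.31 TPM, the testis form Rpl39l 0.42 TPM and the extra copy Rps3a2 0.78 TPM. Rps19bp1, a regulator of the deacetylase SIRT1 rather than a subunit, averaged 20.3 TPM, and Rps4l averaged 21.2 TPM. Rpl10l and Rpl32l had no count in any library, which allows at most 3 counts of each total and covers counting error only. Together with Rpl21-ps13, Rpl6l, Rps23rg1 and Rps3a3 they did not pass the filter on low counts, so 89 of the 95 members were tested.

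The members' share of all counts differed 8.29-fold between libraries. It was 3.52%, 9.44%, 23.9% and 10.9% in silica_DMSO 2, 4, 5 and 6, and 2.89%, 4.41% and 7.77% in silica 1, 2 and 7. It was 9.53%, 15.4%, 4.63% and 5.56% in DMSO 1, 4, 6 and 7, and 8.75%, 3.601%, 3.11% and 4.16% in control 1, 2, 4 and 7. The lowest library of each group lay at 2.89% to 4.63% and the highest at 7.77% to 23.9%, so all 4 groups overlapped. Wilson 95% intervals of these shares were at most 0.0184 percentage points to either side and cover counting error only.

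Group means were 11.95% ± 8.60 in silica_DMSO lungs (SD, n = 4) and 5.02% ± 2.50 in silica lungs (n = 3). They were 8.78% ± 4.89 in DMSO lungs (n = 4) and 4.90% ± 2.60 in control lungs (n = 4). Without the 3 libraries rich in thymocyte genes, silica_DMSO lungs averaged 13.7% over 2 libraries and DMSO lungs 9.85% ± 5.39 over 3. Single libraries carried much of these means: silica_DMSO lungs averaged 7.96% without replicate 5, and DMSO lungs 6.57% without replicate 4. Fewer cells rich in ribosomes and less ribosomal protein mRNA per cell cannot be told apart in such bulk samples.

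On the scale of TPM the share was larger and its order differed. Silica_DMSO 2, 4, 5 and 6 gave 9.07%, 25.8%, 29.1% and 28.5% of TPM, and silica 1, 2 and 7 gave 8.15%, 10.3% and 12.9%. DMSO 1, 4, 6 and 7 gave 16.03%, 19.7%, 10.8% and 16.4%, and control 1, 2, 4 and 7 gave 14.6%, 8.88%, 9.29% and 9.75%. By counts the libraries rich in thymocyte genes were at 9.44% and 10.9% in the silica_DMSO group and at 5.56% in the DMSO group. By TPM they were at 25.8% and 28.5% in the silica_DMSO group and at 16.4% in the DMSO group.

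**Figure D2:**
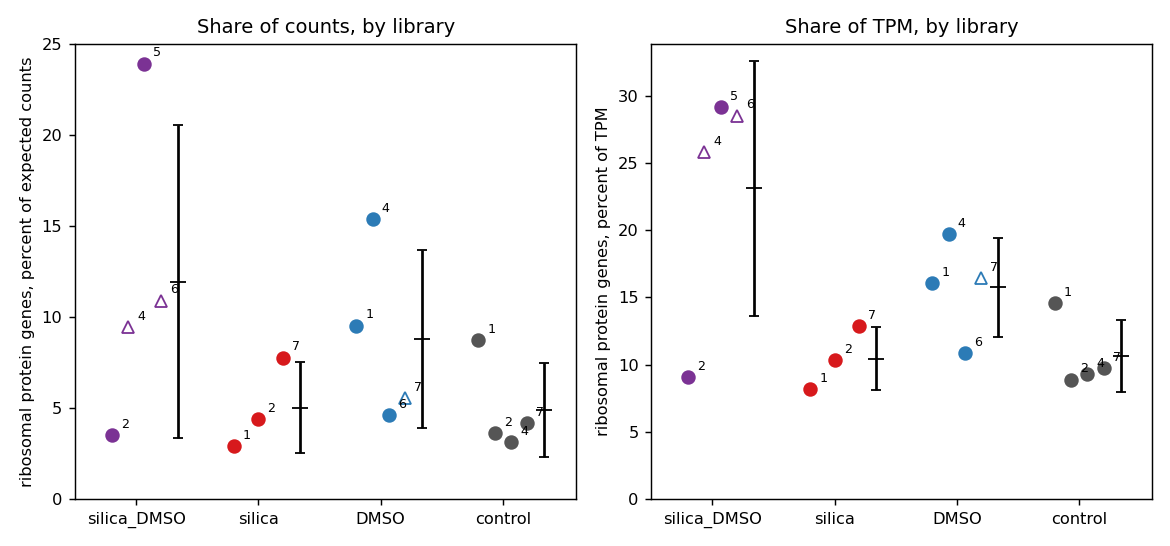
Share of all expected counts (left) and of TPM (right), in percent, taken by the 95 members in each of the 15 libraries, grouped as silica_DMSO, silica, DMSO and control and numbered by replicate, with the group mean ± SD in black and the 3 libraries rich in thymocyte genes as open triangles. Silica_DMSO 5 reached 23.9% of counts and 29.1% of TPM, and the groups overlapped on both scales.

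The plot of shares by library shows that, by counts, 1 or 2 libraries lifted each group mean. By TPM silica_DMSO 4, 5 and 6 all stood high. Silica_DMSO 5, DMSO 4, DMSO 1, silica 7 and control 1, high by counts, were also the libraries in which other short genes weighed most. Silica_DMSO 4 and 6, with members at 9.44% and 10.9% of counts, were the libraries in which such genes weighed least. Members are short, with a median listed length of 795 bases, 68 of 95 under 1000 bases and 2 over 3000. Genes under 1000 bases that are no members took 13.8%, 9.36%, 33.4% and 9.44% of counts in silica_DMSO 2, 4, 5 and 6, and 10.9%, 16.6% and 26.2% in silica 1, 2 and 7. They took 25.1%, 32.5%, 16.4% and 9.54% in DMSO 1, 4, 6 and 7, and 29.4%, 15.3%, 11.5% and 16.5% in control 1, 2, 4 and 7.

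Among the 12 libraries without high thymocyte genes, the 5 richest in members (silica_DMSO 5, DMSO 4, DMSO 1, control 1 and silica 7) were also the 5 richest in other short genes. They were the 5 poorest in genes over 3000 bases, which took 10.97% of counts in silica_DMSO 5, 12.1% in DMSO 4, 23.5% in DMSO 1, 24.0% in control 1 and 22.4% in silica 7. In the other 7 libraries such long genes took 33.97% to 44.9%. Scgb1a1, a short and abundant secretory gene of airway club cells, followed the same split, with 14.2%, 12.6%, 8.83%, 12.5% and 12.3% of counts in those 5 libraries and 0.927% to 5.31% in the other 7. The part of fragment length, RNA quality or cell makeup in the members' share was not tested.

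**Figure D3:**
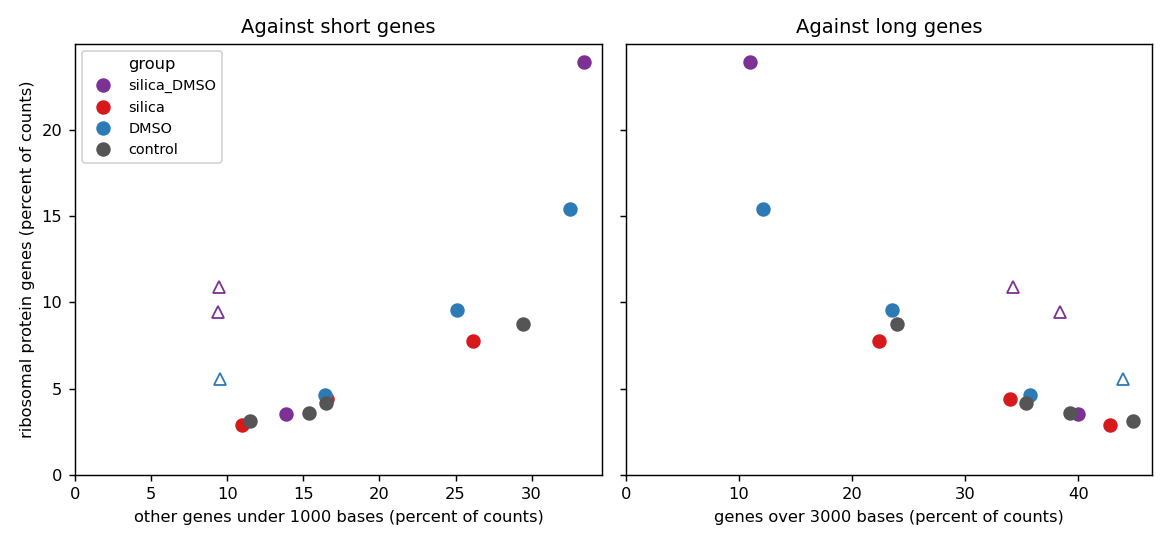
Share of counts of the members (vertical axis, percent) against that of other genes under 1000 bases (left) and of genes over 3000 bases (right), 1 point per library, coloured by group, with the 3 libraries rich in thymocyte genes as open triangles. The members' share was 7.77% to 23.9% in the 5 short-gene libraries and 2.89% to 4.63% in the 7 others without high thymocyte genes.

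The members did not simply scale with other short genes, as the plot against length classes shows. Their counts were 0.716 times those of other short genes in silica_DMSO 5 and 0.473 times in DMSO 4, against 0.235 to 0.380 times in the other 10 of the 12 libraries. In the 3 libraries rich in thymocyte genes the ratio was 1.01 in silica_DMSO 4, 1.16 in silica_DMSO 6 and 0.583 in DMSO 7. This ratio was not also computed without Scgb1a1, so the part of that gene in it was not tested. Set against mitochondrial ribosomal protein genes, also short and housekeeping, members had 59.5 times their counts in silica_DMSO 5 and 40.5 times in DMSO 4, and 17.8 to 33.9 times in the other 13 libraries. Set against nuclear oxidative phosphorylation genes, the ratio ran from 5.33 in control 4 to 12.03 in silica_DMSO 5.

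The balance of the subunits moved little. Large-subunit members had 1.28, 1.20, 1.09 and 1.17 times the counts of small-subunit members in silica_DMSO 2, 4, 5 and 6, and 1.29, 1.24 and 1.22 times in silica 1, 2 and 7. The ratio was 1.17, 1.13, 1.25 and 1.25 in DMSO 1, 4, 6 and 7, and 1.25, 1.29, 1.28 and 1.29 in control 1, 2, 4 and 7. The lowest values were those of silica_DMSO 5 and DMSO 4, the libraries richest in members.

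Coordination was measured as the Pearson correlation between pairs of the 89 tested members over the 12 libraries without high thymocyte genes. It used normalised log2 CPM, scaled by TMM as in the tests. The median pair had r = 0.984, and 0.988 among the standard members alone. The lowest pair of standard members had r = 0.824. Among all 89 members the lowest pair had 0.357, and -0.505 with library totals alone. The first principal component held 96.9% of the variance of the 89 members. These correlations carry no test, since all members share each library's depth, scaling and short-gene weight. When each library's trend with gene length was taken out (a length offset), the median pair had r = 0.930 and, for standard members, 0.9496. Single pairs were looser with the offset, with a lowest r of 0.272 among standard members and -0.321 among all 89. The median pair of 77 mitochondrial ribosomal protein genes had 0.788 with that offset and 0.945 without it, and that of 84 oxidative phosphorylation genes 0.82897 and 0.969. Ribosome assembly genes, which build the particle but are not part of it, had a median pair of 0.104 without the offset.

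Single members followed the mean of the family closely. Of the 77 standard members, 76 had r over 0.95 with the mean of the members, and the lowest was Rps7 at 0.926. The slope on that mean ran from 0.47 for Rpl4 to 1.34 for Rpl39, so between libraries Rpl4 moved less than the family and Rpl39 more. Longer standard members had lower slopes, with Pearson r = -0.378 and Spearman rho = -0.464 over the 77 genes, which share the same libraries. The 23 standard members with a run of at least 8 C or T at the start had a median slope of 1.07, against 0.99 in the 34 without one.

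The spread of a member around the family's mean gave the same picture. Its median was 0.26 on the log2 scale over the 77 standard members, and 38 of them were under 0.25. The steadiest were Rpl27a at 0.044, Rpl17 at 0.095 and Rpl27 at 0.096. Rpl27a (ENSMUSG00000046364), a large-subunit protein, had 272, 673, 802 and 763 TPM in silica_DMSO 2, 4, 5 and 6, 225, 291 and 390 TPM in silica 1, 2 and 7, 464, 547, 318 and 434 TPM in DMSO 1, 4, 6 and 7, and 582, 269, 266 and 288 TPM in control 1, 2, 4 and 7. Its spread over libraries was that of the family as a whole. The least steady members were Rps3a2 at 1.12, Rpl7l1 at 1.06, Rpl3l at 0.94, Rps4l at 0.88 and Rpl39l at 0.87, of which Rps3a2, Rpl3l and Rpl39l had few counts. Among standard members the spread was largest in Rpl4 at 0.75, Rpl10 at 0.57, Rps7 at 0.54 and Rpl39 at 0.52.

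**Figure D4:**
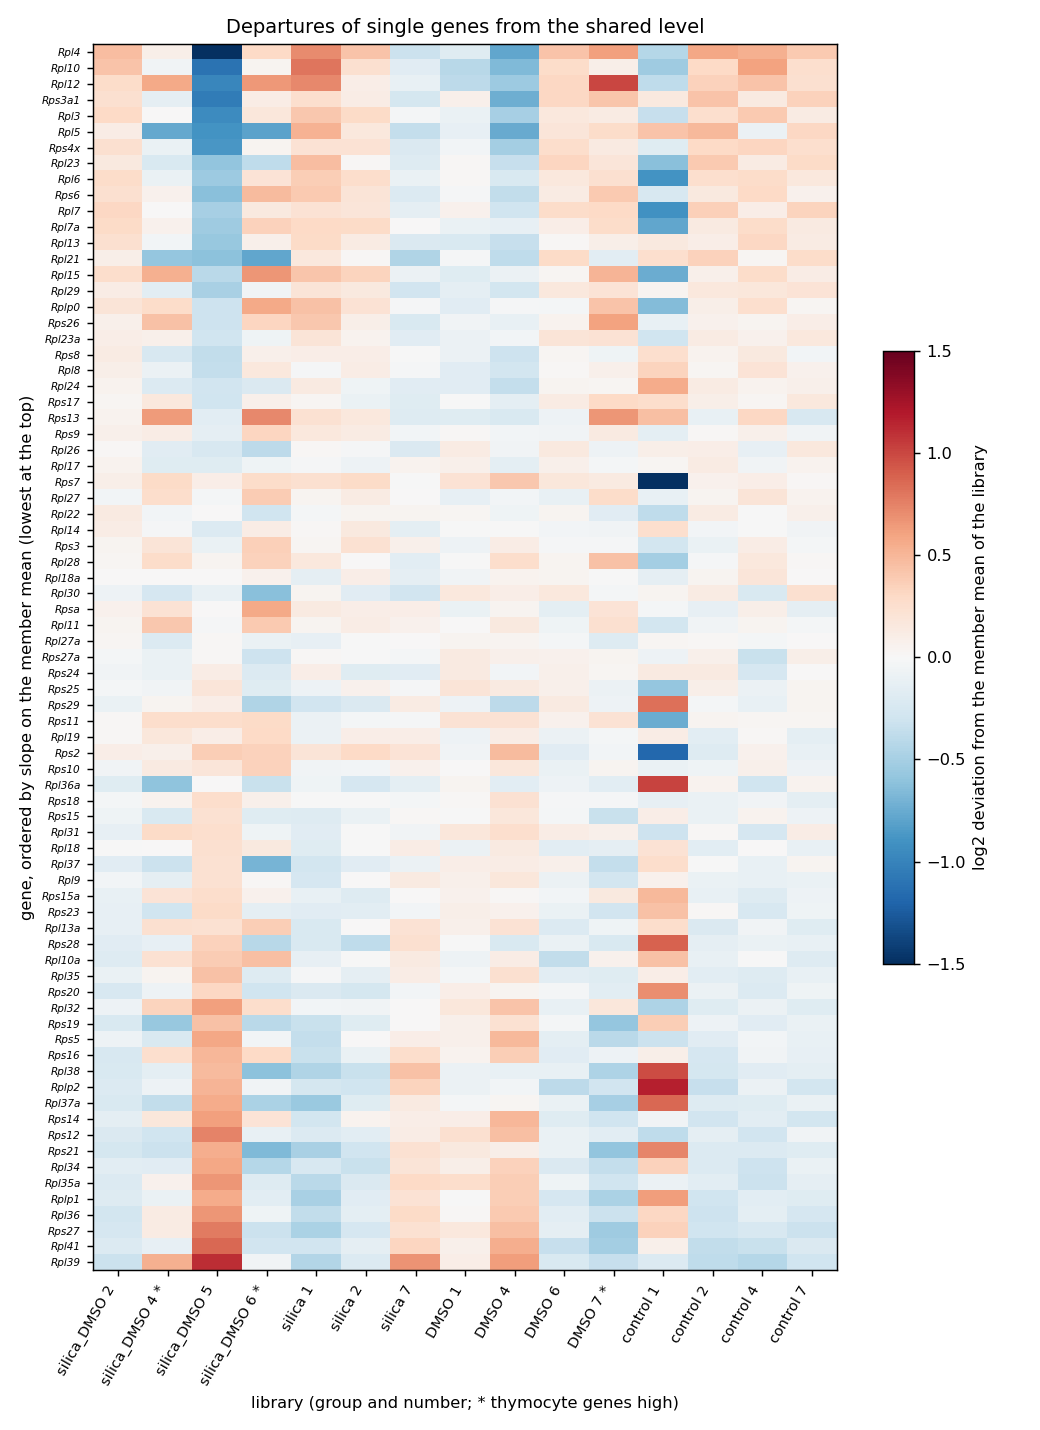
Log2 deviation of each of the 77 standard members (rows, ordered by slope) from the mean of the members in each library (columns, grouped as silica_DMSO, silica, DMSO and control), with the colour scale ending at 1.5 in either direction. Control 1 and silica_DMSO 5 stand apart, with Rps7 at -1.68 in control 1 and Rpl4 at -1.85 in silica_DMSO 5.

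The heat map of deviations has 2 columns that break the pattern. The SD of the standard members' deviations was 0.532 in silica_DMSO 5 and 0.518 in control 1, against 0.130 to 0.353 in the other 13 libraries. In each of these 2 libraries 4 standard members lay more than 1 log2 unit off the mean of the members. In the other 13 libraries a single standard member did so, Rpl12 in DMSO 7.

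In silica_DMSO 5 these 4 were Rpl4, Rpl10, Rps3a1 and Rpl39. Rpl4, a large-subunit protein at the exit tunnel, was 1.85 below the mean of the members on the log2 scale, Rpl10 1.10 below and Rps3a1 1.05 below, while Rpl39, a very small protein of the same tunnel, was 1.11 above. Rpl4 (ENSMUSG00000032399) had 705, 1604, 429 and 1928 TPM in silica_DMSO 2, 4, 5 and 6, 765, 749 and 607 TPM in silica 1, 2 and 7, 767, 600.5, 828 and 1456 TPM in DMSO 1, 4, 6 and 7, and 616, 748, 759 and 726 TPM in control 1, 2, 4 and 7. By TPM silica_DMSO 5, the richest library in members as a whole, was the lowest of all 15 for Rpl4, but in normalised CPM, the scale of the tests, Rpl4 had 2612 there, the second highest after DMSO 4 with 2733. Rpl39 (ENSMUSG00000079641) had 440.1, 2197, 3296 and 1656 TPM in silica_DMSO 2, 4, 5 and 6, 374, 542 and 1191 TPM in silica 1, 2 and 7, 997, 1675, 555 and 802 TPM in DMSO 1, 4, 6 and 7, and 695, 416, 419 and 483 TPM in control 1, 2, 4 and 7. For Rpl39 the same library was the highest of all by TPM. DMSO 4, the next library in weight of short genes, had Rpl4 0.78 below the mean of the members.

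In control 1 the 4 were others. Rps7 was 1.68 below the mean of the members on the log2 scale and Rps2, which lies at the mRNA entry of the small subunit, 1.17 below. Rplp2 was 1.16 above it and Rpl36a 1.02 above. Rps7 (ENSMUSG00000061477), which in mouse and human cells also binds the p53 regulator MDM2, had 1053, 3506, 3134 and 3697 TPM in silica_DMSO 2, 4, 5 and 6, and 1074, 1334 and 1428 TPM in silica 1, 2 and 7. It had 1951, 2639, 1346 and 2012 TPM in DMSO 1, 4, 6 and 7, and 541, 1017, 1086 and 1089 TPM in control 1, 2, 4 and 7. By TPM control 1 was thus the lowest library for Rps7. In normalised CPM, the scale of the tests, Rps7 had 615, 641, 549 and 738 in control 1, 2, 4 and 7, while the mean of the members in control 1 stood 2.41-fold over the control mean on that scale.

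Beside the low Rps7 counts of control 1, a pseudogene row of Rps7 was high in that library. Rps7-ps3 had 353 CPM in control 1 and 0 to 4.29 CPM in the other 14 libraries. Its transcript in the GENCODE M21 annotation shares 99.4% of 651 aligned bases with Rps7. Rps7 counts were 49.2% of the mean standard member in control 1, against 154% to 198% in the other 14 libraries, and Rps7 and Rps7-ps3 together were 80.7% in control 1. Rps2 was at 85.5% of the mean standard member in control 1 and 162% to 254.6% elsewhere, Rplp2 at 120% and 39.2% to 72.3%, and Rpl36a at 52.2% and 16.2% to 25.9%.

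Some members also deviated in the 3 libraries rich in thymocyte genes. Rpl12 was 0.57, 0.65 and 1.00 above the mean of the members on the log2 scale in silica_DMSO 4, silica_DMSO 6 and DMSO 7, and Rps13 0.63 to 0.72 above. Rpl12 had 67.6, 78.9 and 57.3 TPM in silica_DMSO 4, silica_DMSO 6 and DMSO 7, and 17.7 to 25.8 TPM in the other 12 libraries, with no overlap. Such a gap by TPM was not particular to Rpl12. Rpl10, Rpl3, Rpl4 and Rpl15, among others, had it too, while Rpl27a did not, and members with the gap were not counted. Rps4l was 0.96 to 1.37 below the mean of the members in these 3 libraries. Rpl27a stayed within 0.21 of the mean of the members there too. Low Rps4l was not particular to these 3 libraries. Rps4l was also 0.75 to 0.91 below the mean of the members in DMSO 1 and 4, and its lowest ratio to Rps4x by TPM, 0.00546, was in silica_DMSO 5.

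Pseudogene copies can take or give reads where they are nearly identical to a gene. The 319 pseudogene rows took 3.75% to 6.09% of the counts of members and pseudogenes together. The share was 5.51%, 4.01%, 5.36% and 3.75% in silica_DMSO 2, 4, 5 and 6, 4.74%, 5.09% and 6.09% in silica 1, 2 and 7, 5.82%, 5.32%, 5.77% and 4.27% in DMSO 1, 4, 6 and 7, and 4.38%, 5.69%, 5.25% and 5.74% in control 1, 2, 4 and 7. The 3 libraries rich in thymocyte genes were the lowest at 3.75% to 4.27%, and the groups overlapped. Only 35 pseudogene rows had a count in every library, 106 had none, and the top 5 rows held 66.0% of pseudogene counts.

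For some members the copies outweighed the gene. Pseudogene rows held 67.1% of the counts of Rpl10 and its copies together, 56.98% of those of Rps23 and 56.0% of those of Rpl10a. The leading copies Rpl10-ps3 and Rps23-ps1 were identical to their genes over 470 and 425 aligned bases, and Rpl10a-ps1 shared 99.7% of 348. Pseudogene rows held 41.8% for Rpl27, 41.4% for Rpl36a and 36.6% for Rps13. Values of these members are therefore uncertain, as are those of Rps27rt, Rps12l1 and Rpl37rt, which are near-copies of Rps27, Rps12 and Rpl37. Over the aligned bases Rps27rt (221) and Rps12l1 (132) were identical to their partners, and Rpl37rt shared 99.7% of 333. The sources used here do not say how the authors' counting divided reads between such copies.

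The like genes that are distinct in sequence were set against their partners by TPM. Rpl22l1, which can replace Rpl22 in the large subunit and shared 80.9% of 136 aligned bases with it, stood at 0.204 (silica_DMSO 6) to 0.536 (control 1) times its TPM. Rps27l, a p53 target in human and mouse cells, stood at 0.0343 to 0.0570 times Rps27. Rpl36al stood at 0.441 (silica_DMSO 5) to 0.933 (silica 1) times Rpl36a. Rpl7l1 and Rps4l had wider ranges than these. Rpl7l1 stood at 0.00744 (silica_DMSO 5) to 0.0528 (silica 1) times Rpl7, and Rps4l at 0.00546 (silica_DMSO 5) to 0.0303 times Rps4x. Rps4l was at 0.00566 to 0.00652 times Rps4x in the 3 libraries rich in thymocyte genes.

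Rpl7l1, which departs from the family by TPM, had 37.1, 73.4, 11.7 and 76.5 TPM in silica_DMSO 2, 4, 5 and 6, 41.9, 32.6 and 26.2 TPM in silica 1, 2 and 7, 22.6, 18.8, 33.5 and 56.5 TPM in DMSO 1, 4, 6 and 7, and 15.2, 32.8, 38.0 and 34.9 TPM in control 1, 2, 4 and 7. By TPM its lowest libraries were silica_DMSO 5, control 1, DMSO 4, DMSO 1 and silica 7, the 5 in which short genes weighed most. In normalised CPM, the scale of the tests, that order did not hold, with 129 in silica_DMSO 5 and 154 in DMSO 4, the highest of the 15.

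Group differences were tested with edgeR's quasi-likelihood test on all 17879 genes with enough counts, with Benjamini-Hochberg adjustment and a threshold of adjusted p under 0.05. The spread between libraries was large, with a biological coefficient of variation of 0.666 over 15 libraries and 0.520 over the 12. The comparisons share groups of libraries, so their fold changes are not independent of each other. Members were called in none of the 5 comparisons by edgeR over 15 or 12 libraries, nor by DESeq2 or limma over 15.

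For silica against control lungs, which asks what the dust did by itself, members were level. 0 of 89 members passed in either direction, beside a background of 0.0% of all genes, and 0 members had an unadjusted p under 0.05, beside 2.38% of genes higher and 0.543% lower (0 members also with DESeq2, beside 2.93% of genes higher). Over the 12 libraries 0 members passed as well, beside 0.0113% of genes higher, and the members' median was 0.02. Their median log2 fold change was 0.04, beside 0.00 for all genes, with 47 members above 0 and 42 below. The members with the highest values were Rpl39l at 1.80 ± 1.15 (SE), Rps3a2 at 1.54 ± 1.4995 and Rps2 at 0.79 ± 0.95, and those with the lowest were Rpl36a at -0.75 ± 1.05, Rplp2 at -0.53 ± 1.17 and Rpl36al at -0.52 ± 0.87. Rplp2 averaged 352 ± 316 normalised CPM in silica lungs and 508 ± 663 in control lungs (SD, n = 3 and 4), and the control figure was carried by control 1. Without control 1 the members' median was 0.64, with all 88 tested above 0, and without silica 7 it was -0.68, with 5 of 89 above 0. The sign of the difference thus depended on a single library.

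For DMSO against control lungs, the solvent without dust, members lay higher without passing. 0 of 89 passed, beside 0.0% of all genes, and the smallest adjusted p was 0.649 with edgeR's quasi-likelihood test. The median log2 fold change was 1.15, beside 0.14 for all genes, with 87 members above 0 and 2 below. At an unadjusted p under 0.05 there was 1 member, Rps7, beside 5.83% of all genes higher and 1.3% lower, and DESeq2 had 12 such members, beside 8.89% of all genes higher, with a smallest adjusted p of 0.227. In control 1 Rps7 lay 1.68 below the mean of the members on the log2 scale, and its pseudogene row Rps7-ps3 had 353 CPM there. Rps7 averaged 2652 ± 2567 normalised CPM in DMSO lungs and 636 ± 78.4 in control lungs (SD, n = 4 each), a log2 fold change of 2.06 ± 0.83. Rpl39l and Rps3a2, of few counts, had 2.18 ± 1.10 and 2.18 ± 1.43, and the lowest were Rpl3l at -0.84 ± 1.05, Rps4l at -0.08 ± 0.59 and Rpl36al at 0.39 ± 0.80. Without DMSO 4 the median was 0.34, without control 1 it was 1.85, with the gene length offset it was 0.60, and over the 12 libraries it was 1.39.

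For silica_DMSO against silica lungs, which asks what DMSO did after dust, the members lay furthest apart, again without passing. 0 of 89 passed, beside 0.0% of all genes, and the smallest adjusted p was 0.708 with edgeR's quasi-likelihood test. The median log2 fold change was 1.83, beside 0.05 for all genes, and all 89 members were above 0. An unadjusted p under 0.05 was reached by 6 members, beside 4.6% of all genes higher and 1.3% lower. In the 12 libraries silica_DMSO lungs were replicates 2 and 5 alone, with the family's TMM-scaled level at 0.719 and 11.8 times the control mean. The median there was 2.42, and 46 members had an unadjusted p under 0.05, beside 1.52% of genes higher. The smallest adjusted p there was 0.997 with edgeR's quasi-likelihood test. DESeq2 had 71 members at an unadjusted p under 0.05 over the 15 libraries, beside 8.53% of all genes higher, and a smallest adjusted p of 0.338. The highest were Rps12l1 at 2.41 ± 1.44, Rps27 at 2.37 ± 1.28 and Rpl39 at 2.36 ± 1.29, and the lowest Rps4l at 0.08 ± 0.64, Rpl7l1 at 0.52 ± 0.33 and Rpl3l at 0.56 ± 1.11.

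Those values rested on silica_DMSO 5. Rps27, the small-subunit gene of highest TPM, averaged 3493 ± 5366 normalised CPM in silica_DMSO lungs and 678 ± 598 in silica lungs (SD, n = 4 and 3), so its SD in silica_DMSO lungs was above its mean. Rps27 had 5891, 17763, 26745 and 17704 TPM in silica_DMSO 2, 4, 5 and 6 and 4854, 7161 and 8868 TPM in silica 1, 2 and 7. Silica_DMSO 2 lay among the silica lungs and the other 3 above them, of which 2 were rich in thymocyte genes. Without silica_DMSO 5 the members' median was 0.36, with 80 of 88 above 0. Without silica_DMSO 2 it was 2.18, with 60 members at an unadjusted p under 0.05, beside 10.4% of all genes higher, and a smallest adjusted p of 0.142 with edgeR's quasi-likelihood test. With library totals alone it was 1.28, and with the gene length offset 1.00. TMM, the main scaling, set a factor of 0.478 for silica_DMSO 5, the lowest of the 15, which raises that library's values.

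For silica_DMSO against DMSO lungs, dust beside DMSO, 0 of 89 members passed, beside 0.0% of all genes, and 0 had an unadjusted p under 0.05, beside 0.66% of genes higher and 1.05% lower, with 0 in DESeq2 too, beside 1.18% of genes higher. The median was 0.66, beside -0.00 for all genes, with 88 members above 0 and 1 below. The highest were Rps12l1 at 1.57 ± 1.25, Rpl3l at 1.33 ± 1.07 and Rpl39 at 1.19 ± 1.11, and the lowest Rps4l at -0.33 ± 0.59, Rpl4 at 0.04 ± 0.46 and Rpl7l1 at 0.18 ± 0.30. Rpl4 averaged 1765 ± 780 normalised CPM in silica_DMSO lungs and 1721 ± 728 in DMSO lungs (SD, n = 4 each). Without silica_DMSO 5 the median was -0.76, with 2 of 88 members above 0, and without DMSO 4 it was 1.48. Over the 12 libraries, with silica_DMSO 2 and 5 alone in their group, it was 1.04. The direction again turned with 1 library.

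The interaction asks whether DMSO differed in its effect with and without dust. 0 of 89 members passed, beside 0.0% of all genes, and 0 had an unadjusted p under 0.05, beside 0.414% of genes higher and 1.25% lower, with 0 in DESeq2 too, beside 0.648% of genes higher. The median was 0.66, beside -0.00 for all genes, with 84 members above 0. The highest were Rplp2 at 1.66 ± 1.61, Rpl37a at 1.53 ± 1.60 and Rps12l1 at 1.48 ± 1.82, and the lowest Rpl39l at -1.25 ± 1.49, Rps3a2 at -0.88 ± 1.95 and Rps7 at -0.23 ± 1.18. Rplp2, Rpl37a and Rps7 are members that stood off the family in control 1. Without silica_DMSO 5 the median was -0.73, and without control 1 it was 0.01. Over the 12 libraries, with silica_DMSO 2 and 5 alone in their group, it was 1.01.

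**Figure D5:**
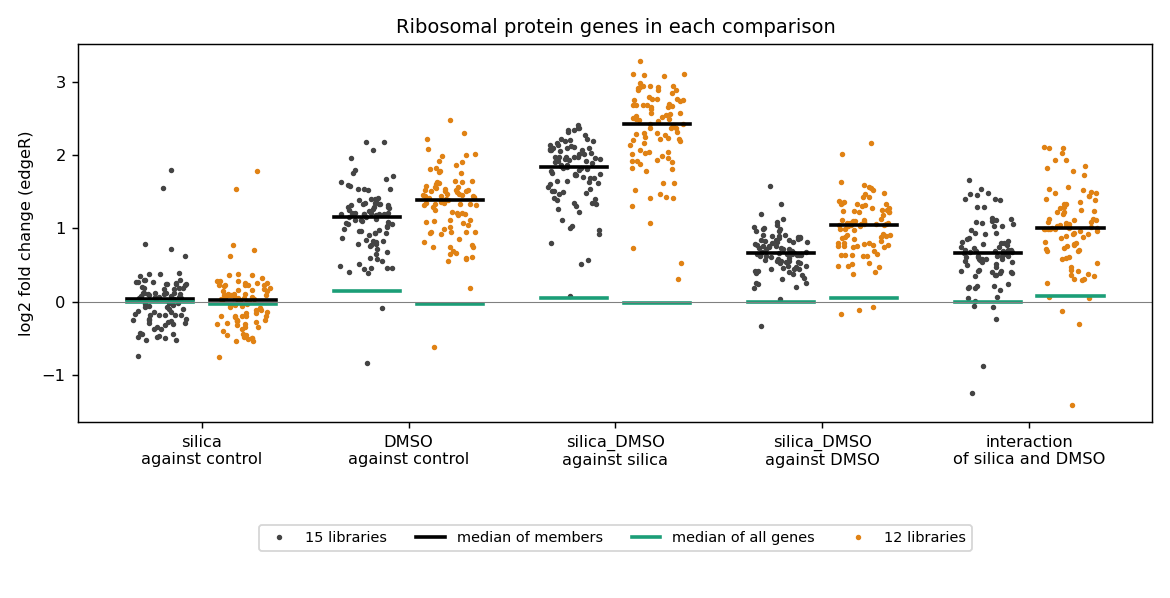
Log2 fold change of each of the 89 tested members (points) in the 5 comparisons, over 15 libraries and over the 12 without high thymocyte genes, with the medians of the members (black) and of all genes (green). The members' medians over 15 libraries were 0.04, 1.15, 1.83, 0.66 and 0.66, and no member passed the test in any comparison.

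Within each comparison the members lay together rather than apart, as the plot of fold changes shows. Libraries of 1 group differed too: the mean log2 level of the members had a pooled SD of 1.23 between libraries of a group. On the same scale the group means differed by 0.03 for silica against control, 0.99 for DMSO against control, 1.23 for silica_DMSO against silica and 0.27 for silica_DMSO against DMSO. This TMM-scaled mean log2 level was also expressed as a multiple of the control mean. On that scale the family stood at 0.719, 1.81, 11.8 and 2.15 in silica_DMSO 2, 4, 5 and 6, and at 0.564, 0.936 and 2.03 in silica 1, 2 and 7. It stood at 2.44, 5.86, 0.981 and 1.11 in DMSO 1, 4, 6 and 7, and at 2.41, 0.747, 0.626 and 0.887 in control 1, 2, 4 and 7. Each group held libraries on either side of the others. These multiples include the TMM factors, of which 0.478 raises silica_DMSO 5. By share of counts that library had 23.9%, beside 3.11% to 8.75% in the control libraries.

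Genes that work with the ribosome were read from the same fit, and in each list 0 genes passed edgeR's test in any comparison. At an unadjusted p under 0.05 a list held at most 4 genes in any comparison. The 4 were of the 77 mitochondrial ribosomal protein genes for silica_DMSO against silica lungs. All genes over the 15 libraries had 4.6% higher and 1.3% lower at that limit. Rack1 and Fau encode ribosomal proteins under other names. They had log2 fold changes of 1.70 ± 0.86 and 2.20 ± 1.22 for silica_DMSO against silica lungs, and of 1.69 ± 0.78 and 0.93 ± 1.06 for DMSO against control lungs. These values lay within the range of the members. The 77 mitochondrial ribosomal protein genes had medians of 0.08 for silica against control, 0.64 for DMSO against control, 0.88 for silica_DMSO against silica, 0.27 for silica_DMSO against DMSO and 0.18 for the interaction. The 84 oxidative phosphorylation genes tested had 0.03, 0.78, 1.17, 0.43 and 0.36 in the same order, lower than the members in each but still on the same side of 0. Over the 12 libraries the mitochondrial ribosomal protein genes had 0.06, 0.80, 1.15, 0.35 and 0.32, and the oxidative phosphorylation genes 0.01, 0.94, 1.56, 0.67 and 0.64.

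Other mRNAs with a terminal tract were read in the same way. The 18 genes of elongation and related tract-bearing mRNAs had medians of 0.13 for silica against control, 0.80 for DMSO against control, 0.88 for silica_DMSO against silica, 0.31 for silica_DMSO against DMSO and 0.18 for the interaction, and 0.11, 0.78, 0.98, 0.29 and 0.07 over the 12 libraries. Their median pair correlation was 0.818 over the 12 libraries. The 8 host genes of small nucleolar RNAs, among them Zfas1 at 2.19 ± 0.94 for silica_DMSO against silica, had -0.13, 0.58, 1.17, 0.28 and 0.71 in that order, and -0.15, 0.75, 1.52, 0.66 and 1.11 over the 12 libraries. The 26 assembly genes had 0.09, 0.28, 0.52, 0.37 and 0.19, with Fbl, the methyltransferase of ribosomal RNA, at 1.08 ± 0.47 for silica_DMSO against silica. Over the 12 libraries the assembly genes had 0.07, 0.03, -0.05, 0.01 and -0.14, so the sign turned for silica_DMSO against silica and for the interaction.

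Genes that control the tract, growth or stress had these values. The 12 genes of mTORC1 and tract control had medians of -0.01, -0.01, 0.26, 0.22 and 0.28 in the same order of comparisons. Over the 12 libraries they had -0.04, -0.36, -0.22, 0.14 and 0.29, so the sign turned for silica_DMSO against silica. Larp1, which binds the tract, had log2 fold changes of 0.08, -0.18, 0.11, 0.36 and 0.28, and 0.04, -0.73, -0.35, 0.42 and 0.38 over the 12 libraries. Myc, which drives ribosome production, had 0.17, 0.66, 1.495, 1.00 and 0.83, and 0.14, -0.43, -0.03, 0.54 and 0.40 over the 12 libraries. The 16 tested genes of ribosome stress and p53 had 0.12, 0.15, -0.08, 0.00 and -0.10, and 0.10, 0.19, -0.08, 0.06 and -0.08 over the 12 libraries.

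Genes outside the rule were ranked by how like their normalised log2 CPM was to the mean of the members over the 12 libraries. The most alike were Mrpl30 with r = 0.9987, Snrpf with 0.9983, Ndufa6 with 0.9980, Tpt1 with 0.9979 and Mettl23 with 0.9979. Next came Eef1b2, Chchd1, Atp5mpl, Micos10 and Tomm7, down to r = 0.9970. All 17746 genes outside the rule had a median r of -0.109, with 0.958 at the upper 5% limit, -0.915 at the lower, and 1057 had r over 0.95. Larp1 had -0.884, inside these limits, Eef2, a tract-bearing elongation factor of a long mRNA, had 0.615, and Myc had 0.198. All points share the libraries and their length weights, and no test was made.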

How the data were processed

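Total RNA of 15 lung libraries was sequenced from TruSeq libraries, per the labels' protocols. Bowtie 0.12.2 and build mm8 are named in the submitters' processing notes. The deposited tables hold expected counts (7.52% to 10.0% of values per library not whole) and TPM per gene, with gene length in bases among the other columns, per the file headers. The counting tool and its use of strand are not given in the sources used here. Another 8 columns of group means were not used.

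Expected counts were rounded, filtered with filterByExpr, scaled by TMM and tested with edgeR 4.0.16 (robust quasi-likelihood, R 4.3.3) with 4 group means and Benjamini-Hochberg adjustment. The script was tested on simulated data. Alternatives were DESeq2 1.42.0, limma 3.58.1 on log2(TPM + 1), other scalings and filters, a gene length offset (lowess of log2 counts on log2 length in each library), a replicate block, the 12 libraries and each library left out.

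Named members were the 5 highest and 5 lowest by TPM, the 3 highest and 3 lowest fold changes per comparison, the 5 most and 3 least spread around the mean of the members, the stalk genes, Rpsa, and like genes with their partners. Others, such as Rpl10, Rps3a1, Rpl13a and the pseudogenes, were chosen after their values were seen, as were the run of 8 C or T and the letters CTTTCC. Members and lists were chosen with earlier results of these data known. Transcripts for copies are from GENCODE M21. One gene of the lists is not reported here.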

Additional observations from a re-analysis of the deposited data

Results flagged for a closer look

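Of 107 groups of 4 libraries examined, 17 had a library standing apart from the rest by Dixon's measure. Chance gives about 1 in 20 for independent groups, a rate that does not apply here, since these items share libraries and many were chosen for their spread or fold change. Groups of 3 were not examined.

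Control 1 supplied most of them. The members took 14.6% of TPM there, against 8.88% to 9.75% in the other control libraries, and had 28.1 times the counts of mitochondrial ribosomal protein genes, against 19.1 to 20.5 times. Single members stood off the mean of the members in control 1 on the log2 scale. Rplp2 was at 1.16, Rpl37a at 0.87, Rps12l1 at 0.78, Rpl36al at 0.77 and Rps27 at 0.35, while Rps7 was at -1.68 and Rpl7l1 at -1.06. The pseudogene row Rps7-ps3 had 353 CPM in control 1 and 0 in each other control library.

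Elsewhere, silica_DMSO 2 had 9.07% of TPM in members, against 25.8% to 29.1% in the other silica_DMSO libraries, of which 2 were rich in thymocyte genes, and a Rps4l over Rps4x ratio of 0.0221, against 0.00546 to 0.00652. Rpl4 was at -1.85 in silica_DMSO 5. Rps4l was at 0.35 in DMSO 6, and Rps27l stood at 0.0465 times Rps27 in DMSO 7. Rpl3l was at 0.98 in control 2 and Rps3a2 at 0.75 in control 7, both members of few counts.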

How the results depend on the processing

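No member was called under any of the 12 alternatives (11 for the interaction, which has no fit of only the groups compared) or with any single library left out, so the count stayed at 0 in all 5 comparisons. Few genes of any kind were called in these fits. Outside DESeq2, given below, all were for silica against control: 41 with only the groups compared, 2 over the 12 libraries and 8 there with the length offset. Every other edgeR or limma fit called 0 genes, so 0 members says little about the members. Counting intervals of the shares reached at most 0.0184 percentage points to either side. With single libraries left out, the median log2 fold change of the members ran from -0.68 to 0.64 for silica against control, 0.34 to 1.85 for DMSO against control, 0.36 to 2.47 for silica_DMSO against silica, -0.76 to 1.48 for silica_DMSO against DMSO and -0.73 to 1.48 for the interaction. For silica against control the ranges of single members were -1.41 to 0.52 for Rpl36a, -1.56 to 0.99 for Rplp2, -0.92 to 0.52 for Rpl36al, 0.17 to 1.13 for Rps2, -0.40 to 2.41 for Rps3a2 and 0.39 to 2.20 for Rpl39l. For DMSO against control the ranges of single members were -1.58 to -0.49 for Rpl3l, -0.75 to 0.47 for Rps4l, -0.25 to 1.42 for Rpl36al, 1.15 to 2.35 for Rps7, 1.77 to 3.05 for Rps3a2 and 1.62 to 2.50 for Rpl39l. For silica_DMSO against silica the ranges of single members were -0.45 to 0.50 for Rps4l, 0.37 to 0.69 for Rpl7l1, 0.25 to 1.07 for Rpl3l, 0.24 to 3.62 for Rpl39, 0.27 to 3.36 for Rps27 and -0.56 to 3.81 for Rps12l1. For silica_DMSO against DMSO the ranges of single members were -0.86 to 0.34 for Rps4l, -0.22 to 0.36 for Rpl4, 0.05 to 0.44 for Rpl7l1, -0.93 to 2.41 for Rpl39, 0.98 to 2.07 for Rpl3l and -1.40 to 2.63 for Rps12l1. For the interaction the ranges of single members were -1.96 to 0.15 for Rpl39l, -1.75 to 1.06 for Rps3a2, -1.52 to 0.68 for Rps7, -1.49 to 2.87 for Rps12l1, -0.59 to 2.44 for Rpl37a and -0.18 to 2.69 for Rplp2. The median pair correlation ran from 0.973 to 0.993, and 12 of the 30 named fold changes kept their direction when single libraries were left out. Across every alternative, 7 of the 30 did. Mean group shares without single libraries ran from 7.96% to 14.8% of counts in silica_DMSO lungs and from 3.65% to 6.09% in silica lungs. They ran from 6.57% to 10.2% in DMSO lungs and from 3.62% to 5.50% in control lungs.

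The labels do not say whether the replicate numbers pair the samples. Same-numbered libraries of 2 groups had correlations of their deviations from -0.487 to 0.235. These cannot show whether the numbers pair samples, since each group mean rests on few and unlike libraries. With the numbers as a replicate block the members' median was 0.31 for silica against control, 0.81 for DMSO against control, 0.12 for silica_DMSO against silica, -0.39 for silica_DMSO against DMSO and -0.65 for the interaction. Under the block, signs turned for Rplp2 (0.28) in silica against control, for Rps4l (-0.49), Rpl3l (-0.95), Rpl39 (-0.11), Rps27 (-0.10) and Rps12l1 (-0.51) in silica_DMSO against silica, for Rpl4 (-0.14), Rpl39 (-0.32), Rpl3l (-0.60) and Rps12l1 (-0.64) in silica_DMSO against DMSO, and for Rps12l1 (-1.29), Rpl37a (-0.64) and Rplp2 (-0.28) in the interaction. Without the 3 libraries rich in thymocyte genes, signs turned for Rps4l (0.18) in DMSO against control, Rpl4 (-0.12) and Rpl7l1 (-0.074) in silica_DMSO against DMSO, and Rps3a2 (0.053) and Rps7 (0.062) in the interaction. With the gene length offset they turned for Rpl36al (-0.16, and -0.19 in the 12 libraries) in DMSO against control and Rps4l (-0.11) in silica_DMSO against silica, and in the 12 libraries also for Rpl4 (-0.16) in silica_DMSO against DMSO and Rps3a2 (0.58) in the interaction. With library totals and with limma on TPM they turned for Rps4l (-0.21 and -0.27) and Rpl3l (-0.12 and -0.17) in silica_DMSO against silica, and with limma for Rps4l (0.011) in silica_DMSO against DMSO. The cause of these turns was not tested. The median pair correlation was 0.972 over 15 libraries, 0.968 with library totals and 0.930 with the length offset. DESeq2 called 44, 63, 67, 1 and 8 genes over the 5 comparisons in the order above, none of them members. The main fit, edgeR's quasi-likelihood test on all 15 libraries, called 0.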
